A study of Mus musculus with 48 samples.

Results

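The mouse genes of the kinesin, dynein and myosin motors were taken from the count tables by their symbols. A protein-coding gene was a member when its symbol began with Kif and a digit or c, with Dync1 or Dync2, or with Myo and a digit. This gave 75 genes of the 50600 listed, 43 with kinesin symbols, 7 with dynein symbols and 25 with myosin symbols. Of the 75, 59 had enough counts to be tested and 16 did not.

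The study asked how N6L, a pseudopeptide that antagonises nucleolin, changes the mRNAs that mPDAC cells load onto ribosomes. mPDAC is a cell line from mouse pancreatic ductal adenocarcinoma, with an FVB/N x C57BL6 background and an age of 8 weeks in the labels, and all 6 cultures came from this one line. Non-treated (NT) cultures 1, 2 and 4 were compared with N6L cultures 1, 2 and 3, which received 50 µM N6L for 48 h. The lysate of each culture gave a cytoplasmic library, which holds mRNA whether or not it carries ribosomes, and a polysomal library from the pooled sucrose gradient fractions in which mRNAs carry several ribosomes. The 12 libraries were therefore 3 per group in the groups NT cytoplasm, NT polysomes, N6L cytoplasm and N6L polysomes. Messenger RNA was selected by its poly(A) tail.

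Motor proteins turn the energy of ATP into movement along the cytoskeleton. Kinesins mostly walk towards the growing ends of microtubules and carry vesicles and organelles, and a group of them builds the mitotic spindle and drives cytokinesis. Dyneins walk the opposite way, dynein 1 in the cytoplasm and dynein 2 inside cilia, while myosins move on actin filaments at the membrane, on endosomes and in filopodia. Motor heavy chains are large proteins, and most of their mRNAs are long.

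Each library held 19519911 to 44972333 counts, summed over 4 technical replicates. Levels are given as CPM, the counts of a library brought to a common total and scaled by edgeR's TMM factors, so each value is relative to the other mRNAs of its library and not an amount per cell. In such bulk samples, fewer cells of a type and less RNA per cell cannot be told apart. Values with an error are means ± SD over the 3 cultures of a group. Calls come from edgeR's quasi-likelihood test over 13889 genes with a false discovery rate (FDR) below 0.05, and ± after a log2 fold change is its standard error. The labels do not say that the cultures were grown independently, so the p-values measure the spread between these cultures. The ductal keratins were abundant in all 12 libraries, where Krt8 had 2036 to 3356 CPM and Krt18 had 2688 to 4503 CPM, although the epithelial adhesion gene Epcam did not pass 0.301 CPM. Summed markers reached at most 1.18 CPM for fibroblasts, 2.06 CPM for immune cells and 1.01 CPM for endothelium. The acinar genes Cpa1, Amy2a5 and Ptf1a had no counts, while the acinar gene Cela1 had 27.6 to 82.7 CPM. The summed striated muscle markers lay at 0.849 to 2.29 CPM in NT libraries and at 3.59 to 11.7 CPM in N6L libraries, there mostly Acta1, while Myh1 did not pass 0.0655 CPM. The part of these markers in the results below was not tested.

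For 4 motor mRNAs the first 90 bases of the coding sequence are shown, with G and C in capitals, because base composition went with the polysomal results below. They were read 5′ to 3′ from GENCODE vM21 transcripts (GRCm38). Kif20b (chromosome 19, 34922361 to 34975745, plus strand) and Kif18a (chromosome 2, 109280738 to 109341747, plus strand) encode mitotic kinesins and were among the mRNAs lower in N6L polysomes than in N6L cytoplasm. Kif22 (chromosome 7, 127027729 to 127042471, minus strand) and Kif1c (chromosome 11, 70700548 to 70731964, plus strand) were not lower.
Kif20b: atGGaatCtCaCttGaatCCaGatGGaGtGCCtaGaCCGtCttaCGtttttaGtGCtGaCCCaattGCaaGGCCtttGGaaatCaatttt
Kif18a: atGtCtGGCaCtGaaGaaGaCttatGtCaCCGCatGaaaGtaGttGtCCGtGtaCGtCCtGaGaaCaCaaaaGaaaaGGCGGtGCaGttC
Kif22: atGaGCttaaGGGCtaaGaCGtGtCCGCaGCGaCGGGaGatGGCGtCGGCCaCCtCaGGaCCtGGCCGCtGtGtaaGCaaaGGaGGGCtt
Kif1c: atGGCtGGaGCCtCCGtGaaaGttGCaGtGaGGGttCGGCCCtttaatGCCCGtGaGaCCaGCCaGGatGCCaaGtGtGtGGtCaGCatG
Of these 90 bases, 38 are G or C in Kif20b, 42 in Kif18a, 55 in Kif22 and 52 in Kif1c. Over the whole transcript the GC content was 39.4% for Kif20b and 38.3% for Kif18a, against 53.7% for Kif22 and 54.5% for Kif1c. Length did not separate these 4 in the same way, with 5564 bases for Kif20b, 3369 for Kif18a, 2115 for Kif22 and 6684 for Kif1c. The 4 are shown with the results known and do not stand for all members. Dync1h1 and Myo10, with GC content above the median of all genes, were lower (log2 fold change -1.49 and -1.22). Kif20a and Kif2c, with GC content below it, were not called. Over all genes, the N6L difference between polysomes and cytoplasm went with length as well as with GC content (Spearman's rho -0.62 and 0.54).

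mPDAC cells held the mRNAs of most motors, and the 16 members not tested were near zero. These 16 were Kif1a, Kif2b, Kif5a, Kif6, Kif17, Kif26a, Kif26b, Kif27, Kif28, Dync1i1, Myo1f, Myo1g, Myo3a, Myo3b, Myo15 and Myo18b. None of the 16 passed 0.318 CPM in any library, and 3 of them (Kif2b, Myo3a and Myo3b) had no count in any of the 12 libraries. Of the 59 tested, 45 had a mean above 10 CPM in NT cytoplasm and 13 a mean above 100 CPM. Levels between genes were compared per kilobase of the representative transcript. Kif22, a chromosome-binding mitotic kinesin, led in NT cytoplasm with 70.7 ± 2.61 CPM per kilobase, followed by Dync1i2, an intermediate chain of dynein 1, with 49.7 ± 3.21 and Kif23, a kinesin of the cytokinetic midzone, with 48.9 ± 5.70. Dync1i2 and Kif23 did not differ beyond their spread. The heavy chain of dynein 1, Dync1h1, stood at 11.6 ± 2.51 CPM per kilobase, and that of dynein 2, Dync2h1, at 0.201 ± 0.0754.

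The members together took 0.305% to 0.393% of all counts in the 3 NT cytoplasmic libraries and 0.270% to 0.337% in the NT polysomal libraries. In N6L cytoplasm the share was 0.508%, 0.508% and 0.509%, above every NT library. In N6L polysomes it was 0.377%, 0.288% and 0.238% in cultures 1, 2 and 3, so culture 1 lay above the NT polysomal range, culture 2 inside it and culture 3 below it.

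In the cytoplasm, more motor mRNAs were higher than lower after N6L. Of the 59 members, 19 were higher and 1 was lower in N6L than in NT cytoplasm. Over all 13889 genes the called shares were 14.5% higher and 13.8% lower, against 32.2% and 1.69% of the members. The median log2 fold change of the members was 0.44, beside 0.04 for all genes tested, and 49 of the 59 lay above 0.

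Of the 12 mitotic kinesins, edgeR and DESeq2 called 0 higher, and 0 were higher at an unadjusted p below 0.05. Still, 9 of the 12 lay above 0 with a median of 0.26, and in 5 every N6L culture lay above every NT culture, beside 29.3% of all genes. Other fits called some of them higher, namely Kif4 and Kif14 with only the groups compared, and Kif20b with no filter on low counts and without N6L culture 1. The roles were not tested against each other. Of the cargo-carrying kinesins 6 of 12 were higher, as were 3 of 10 other kinesins, 1 of 4 dynein 1 genes, 1 of 2 dynein 2 genes, 1 of 6 class I myosins, 3 of 5 cargo and endosome myosins and 4 of 8 other myosins. Kif13b, a kinesin that carries phosphoinositide vesicles, changed most. Its level was 2.20, 3.54 and 1.35 CPM in NT cultures 1, 2 and 4 and 13.2, 11.0 and 11.7 CPM in N6L cultures 1, 2 and 3. All N6L values lay above all NT values, a 5.04-fold difference (log2 fold change 2.33 ± 0.39, FDR 0.00199).

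Kif5b, the heavy chain of conventional kinesin-1 in most tissues, was at 137, 163 and 103 CPM in NT cytoplasm and at 203, 277 and 255 CPM in N6L cytoplasm. The groups did not overlap, and the log2 fold change was 0.87 ± 0.29 (FDR 0.0375). Kif3b, which pairs with Kif3a in the heterotrimeric kinesin-2, had 33.9, 46.1 and 32.4 CPM in NT and 72.2, 70.3 and 69.1 CPM in N6L cytoplasm, without overlap (log2 fold change 0.91 ± 0.19, FDR 0.00496). Its partner Kif3a stood at 30.5 ± 3.49 and 35.0 ± 1.54 CPM and did not pass the test (FDR 0.552). The endosomal kinesin Kif16b rose by 0.83 ± 0.24 on the log2 scale (FDR 0.0202), while Kif1b, Kif1c and Kifc3 did not pass (FDR 0.0922, 0.310 and 0.396). The minus-end kinesin Kifc2 had 2.35, 3.04 and 2.65 CPM in NT and 5.80, 6.34 and 7.03 CPM in N6L cytoplasm, again without overlap (log2 fold change 1.26 ± 0.24, FDR 0.00336). Kif24, a kinesin that restrains the growth of cilia, rose by 1.14 ± 0.27 (FDR 0.00903).

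Among the dyneins, the light intermediate chain Dync1li2 rose from 132 ± 17.5 to 194 ± 13.5 CPM (log2 fold change 0.56 ± 0.18, FDR 0.0329). The heavy chain Dync1h1 had 178, 195 and 126 CPM in NT and 281, 197 and 225 CPM in N6L cytoplasm. The lowest N6L value was just above the highest NT value, and the test was not passed (log2 fold change 0.49 ± 0.28, FDR 0.195). Dync2h1 of the ciliary dynein was low throughout and rose from 2.87 ± 1.08 to 5.41 ± 0.826 CPM (FDR 0.0432), while its light intermediate chain Dync2li1 did not pass (log2 fold change -0.22 ± 0.16, FDR 0.326).

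Among the myosins, Myo6, which walks towards the minus ends of actin and serves endocytosis, had 38.3, 43.2 and 31.6 CPM in NT and 74.2, 92.7 and 82.0 CPM in N6L cytoplasm. The log2 fold change was 1.14 ± 0.24 (FDR 0.00492), with no overlap of the groups. Myo5b, the motor of recycling endosomes, rose by 0.84 ± 0.26 (FDR 0.0266), and Myo5a, its counterpart for melanosomes and other cargo, did not pass (0.36 ± 0.23, FDR 0.245). Myo1e, a membrane-binding class I myosin, was tight within groups, with 82.2, 81.8 and 80.6 CPM in NT and 141, 143 and 156 CPM in N6L cytoplasm (log2 fold change 0.85 ± 0.18, FDR 0.00561). Myo18a, which links the Golgi to actin, rose from 148 ± 15.2 to 238 ± 19.5 CPM (FDR 0.0183). The RhoGAP-bearing Myo9a rose by 0.88 ± 0.26 (FDR 0.0217), and Myo9b, Myo10, Myo1c, Myo1d and Myo19 did not pass, with log2 fold changes of 0.15, 0.59, 0.32, 0.44 and -0.09. The other members higher in N6L cytoplasm were Kif9, Kif13a, Kif21b, Myo5c, Myo7a and Myo15b. Kif9 and Myo7a count among the 19 higher members but were near the floor, with means of 0.121 and 0.472 CPM in NT cytoplasm. Neither was among the calls with a minimum of 10 counts in every library.

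Kif22 was the one member called lower. It stood at 143, 151 and 154 CPM in NT and at 110, 87.3 and 101 CPM in N6L cytoplasm, without overlap (log2 fold change -0.59 ± 0.17, FDR 0.0215). Myo1a, named after its values were seen, had a lower log2 fold change of -0.71 ± 0.34, also without overlap, but did not pass (FDR 0.127). The other spindle and midzone kinesins stayed within 0.63 on the log2 scale and were not called in the fit of all groups. Kif11, the spindle pole separator, was at 150 ± 10.1 and 167 ± 7.18 CPM, Kif23 at 166 ± 19.4 and 177 ± 0.976 CPM, and Kif20a of the midzone at 161 ± 14.0 and 187 ± 22.9 CPM in NT and N6L.

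The count of 20 was 8 without NT culture 1, 12 without NT culture 2, 10 without NT culture 4 and 8 without N6L culture 2. It stayed at 20 without N6L culture 1 or N6L culture 3, and was 11 (all higher) when each library was corrected for transcript length and GC content. Kif13b, Kif21b, Kif24, Kif3b, Kifc2, Myo1e and Myo6 were called whichever culture was left out, and Kif22 was not.

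On polysomes, the motor mRNAs of treated and untreated cells were called apart for only 2 genes. Kifc2 was higher, from 2.02, 2.78 and 1.84 CPM in NT to 4.54, 6.10 and 7.93 CPM in N6L polysomes (log2 fold change 1.47 ± 0.24, FDR 0.00377). Kif22 was lower, from 159, 173 and 143 CPM to 132, 83.5 and 96.8 CPM (log2 fold change -0.60 ± 0.17, FDR 0.0418). In both genes the polysomal groups did not overlap, and the log2 difference was close to that in the cytoplasm.

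These counts of 1 higher and 1 lower stood against 6.01% and 3.66% of all genes, and the members' median was -0.11 beside 0.00. Of the 12 mitotic kinesins, 11 had a log2 fold change below 0 with a median of -0.38, although only Kif22 was called. Kif2a, a microtubule depolymerase, had the next lowest FDR among the lower members (-0.70 ± 0.24, FDR 0.0762). For Kif5b, Myo6 and Myo1e, which were higher in the cytoplasm, the polysomal log2 fold changes were -0.13, 0.18 and 0.10, and none passed (FDR 0.808, 0.659 and 0.772).

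N6L culture 1 weighed heavily here. Without it, 1 member was higher and 9 were lower (Kif22, Dync1h1, Kif15, Kif20a, Kif23, Kif2a, Kif4, Myo10 and Myo5a), and with the correction for length and GC content 3 were higher and 9 lower. The called shares over all genes in these 2 fits are not given here. The members' median was -0.31 without N6L culture 1 and -0.16 with the correction, beside -0.02 for all genes in each. The call of Kif22 was lost when any culture other than N6L culture 1 was left out. The count was then 1, except without NT culture 2, where Kif13b was called higher. Kifc2 was called whichever culture was left out.

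**Figure D1:**
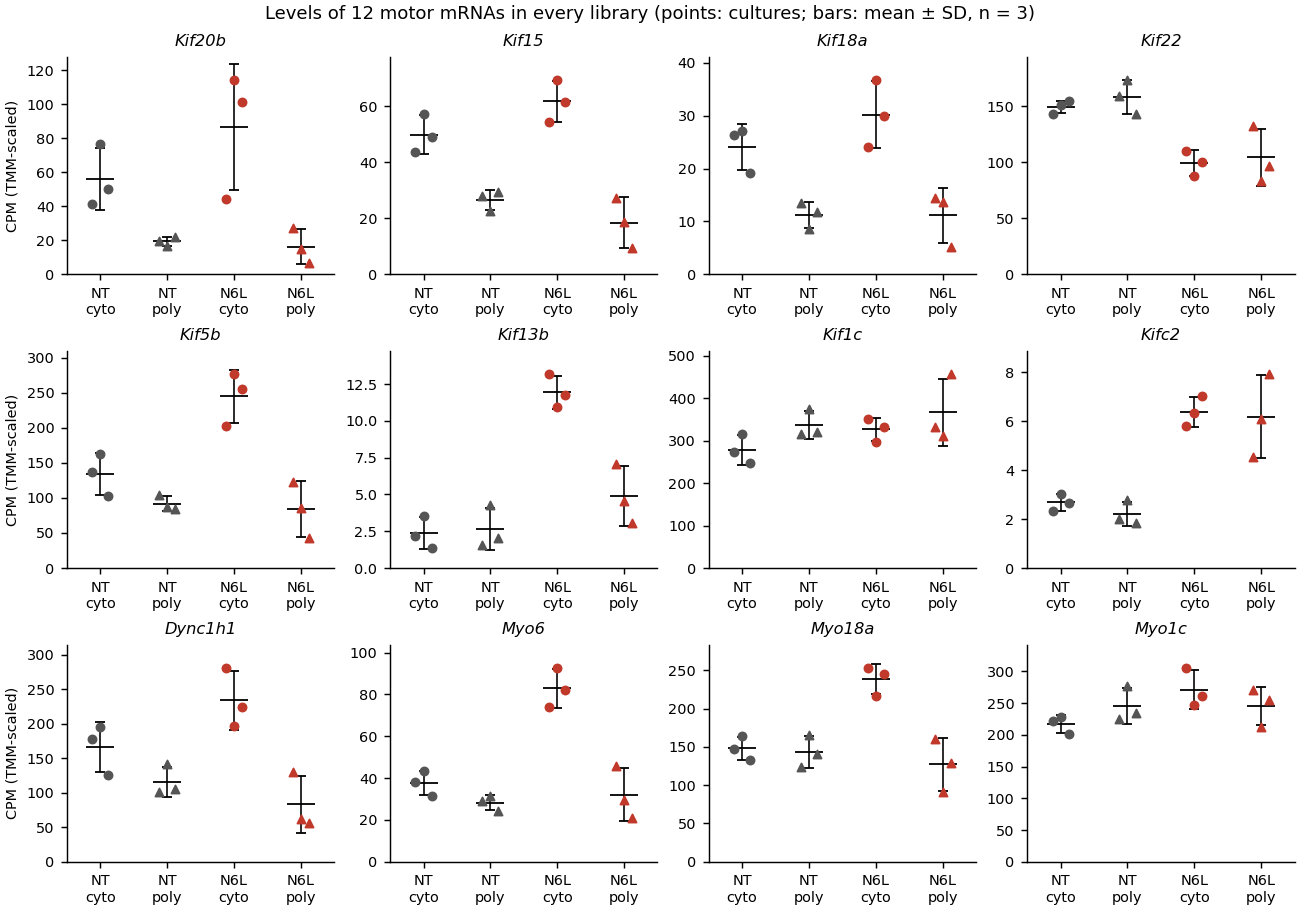
Levels in TMM-scaled CPM (y axis, from 0) of 12 motor mRNAs in NT (grey) and N6L (red) libraries, cytoplasm as circles and polysomes as triangles. Each point is 1 culture and bars are mean ± SD with n = 3. Kif5b, Kif13b, Myo6 and Myo18a are highest in N6L cytoplasm, Kifc2 is high and Kif22 low in both N6L fractions, and Kif1c overlaps between N6L and NT in each fraction.

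The loading of each mRNA was read as the log2 ratio of its polysomal to its cytoplasmic level, where 0 means the same level relative to the other mRNAs in both fractions. The comparison uses the N6L or NT cytoplasmic libraries again, so it shares data with the comparisons above. In NT cells, edgeR called 0 of 59 members, against 0.209% of all genes called lower. At an unadjusted p below 0.05, 5 members were lower beside 9.74% of all genes, and DESeq2 called 2 lower, Kif18a and Kif20b. The members' median log2 fold change was 0.00, beside 0.03 for all genes. The lowest values belonged to mitotic kinesins. Kif20b, which acts in late cytokinesis, had -1.52 ± 0.42 (FDR 0.163), the chromosome-aligning Kif18a -1.10 ± 0.31 (FDR 0.176) and the spindle kinesin Kif15 -0.91 ± 0.28 (FDR 0.190). In each of these 3, every NT polysomal library lay below every NT cytoplasmic one. Without N6L culture 3, whose spread enters the shared error, 4 members were called lower.

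In N6L cells, 33 of 59 members were lower in polysomes than in cytoplasm and 1 was higher. The shares over all genes were 20.6% lower and 18.4% higher, against 55.9% and 1.69% of the members. The median log2 fold change of the members was -0.70, beside 0.03 for all genes. Of the mitotic kinesins 7 of 12 were lower, as were 8 of 12 cargo-carrying kinesins, 4 of 10 other kinesins, 2 of 4 dynein 1 genes, 1 of 2 dynein 2 genes, 3 of 6 class I myosins, 4 of 5 cargo and endosome myosins and 4 of 8 other myosins.

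The lowest values belonged to the mitotic kinesins Kif20b and Kif15. Kif20b had 44.1, 114 and 101 CPM in the cytoplasm of N6L cultures 1, 2 and 3 and 27.0, 14.9 and 6.66 CPM in their polysomes. The fractions did not overlap, and the fitted polysomal level was 0.187 times the cytoplasmic one (log2 fold change -2.42 ± 0.43, FDR 0.00427). Kif15 followed with 54.5, 69.3 and 61.6 CPM in cytoplasm and 27.3, 18.7 and 9.32 CPM in polysomes (-1.74 ± 0.29, FDR 0.00427). Kif18a, Kif4, Kif14, Kif23 and Kif11 lay between -1.44 and -1.16, with FDR values from 0.00511 to 0.00684. These are motors of chromosome arms, the midzone and the spindle.

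The other 5 mitotic kinesins were not called lower. Kif22, Kifc1 and Kif18b had log2 fold changes of 0.07, 0.16 and 0.04, and their ratios in the 3 N6L cultures lay between -0.06 and 0.27. Kif20a (-0.55 ± 0.30, FDR 0.147) and the depolymerase Kif2c (-0.35 ± 0.20, FDR 0.168) did not pass. With the culture as a block, which compares the fractions within a lysate, both were lower, at -0.70 (FDR 0.0236) and -0.37 (FDR 0.0307).

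Of the cargo-carrying kinesins, Kif5b was lowest, with 203, 277 and 255 CPM in the cytoplasm and 123, 86.0 and 43.1 CPM in the polysomes of the N6L cultures (-1.55 ± 0.29, FDR 0.00440). The subunits of kinesin-2 moved alike in direction, Kif3a by -0.85 ± 0.25 (FDR 0.0168) and Kif3b by -0.61 ± 0.19 (FDR 0.0218). Kif13b, Kif16b and Kif1b lay at -1.29, -1.14 and -1.09 (FDR 0.0160, 0.00533 and 0.00684). Kif1c, the most abundant member by CPM in NT cytoplasm and a carrier of integrins, was not lower, with 352, 297 and 332 CPM in cytoplasm and 333, 312 and 457 CPM in polysomes (0.17 ± 0.17, FDR 0.436). Kifc3, a minus-end kinesin of epithelial junctions, lay at 0.35 ± 0.16 (FDR 0.0986), and comparing the fractions within each lysate it was higher (0.33, FDR 0.0368). Among other kinesins, Kif2a had -1.33 ± 0.24 (FDR 0.00427), Kif21a -1.15 ± 0.31 (FDR 0.0124) and Kif24 -0.87 ± 0.27 (FDR 0.0208).

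The dynein 1 subunits differed in value. Dync1h1 had 281, 197 and 225 CPM in the N6L cytoplasm and 130, 62.1 and 56.8 CPM in the N6L polysomes, without overlap (-1.49 ± 0.29, FDR 0.00456). The intermediate chain Dync1i2 was lower by a smaller amount (-0.68 ± 0.22, FDR 0.0276), and the light intermediate chains Dync1li1 and Dync1li2 did not pass (-0.30 and -0.33, FDR 0.200 and 0.158), though Dync1li2 did within lysates (-0.35, FDR 0.0456). In dynein 2, Dync2h1 was lower (-1.46 ± 0.32, FDR 0.00632) and Dync2li1 was at 0.22 ± 0.16 (FDR 0.286). The differences between subunits were not tested.

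Myosins of endosomes and other cargo were lower in 4 of 5 genes. Myo6 had 74.2, 92.7 and 82.0 CPM in N6L cytoplasm and 46.0, 29.3 and 21.1 CPM in N6L polysomes (-1.37 ± 0.24, FDR 0.00427). Myo5a followed at -1.35 ± 0.24 (FDR 0.00427) and Myo5b at -0.81 ± 0.26 (FDR 0.0236), while the mitochondrial Myo19 did not pass (-0.28 ± 0.16, FDR 0.169). Of class I, Myo1e and Myo1d were lower (-0.98 and -0.74), and Myo1c was not, with 306, 247 and 261 CPM in cytoplasm and 271, 213 and 255 CPM in polysomes (-0.14 ± 0.15, FDR 0.466). Myo9a, the filopodial Myo10, Myo18a and Myo9b were lower as well (-1.45, -1.22, -0.91 and -0.60). The one member higher in N6L polysomes was Myo16 (1.88 ± 0.50, FDR 0.0121), named here after its values were seen, and it did not pass 0.777 CPM in any N6L library. The call of Myo16 was lost without N6L culture 1, without N6L culture 3 and with a minimum of 10 counts in every library.

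The 3 N6L cultures differed in size. The median ratio of the 59 members was -0.38 in N6L culture 1, -0.73 in culture 2 and -1.15 in culture 3, against -0.12, -0.01 and 0.02 in NT cultures 1, 2 and 4. The median over all genes tested stayed between -0.02 and 0.06 in every culture. In 41 of the 59 members (69.5%) culture 3 had the lowest of the 3 N6L ratios, beside 44.7% of all genes. In 42 members all 3 N6L ratios were below 0, 71.2% against 36.5% of all genes. Kif20b shows the range, with ratios of -0.71, -2.93 and -3.91 in N6L and -1.09, -2.18 and -1.18 in NT, so its treatments overlap.

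Without N6L culture 2 the count fell from 34 to 14 (13 lower), and without N6L culture 3 to 21, all lower. Whichever culture was left out, 13 members were called lower, namely Dync1h1, Kif15, Kif16b, Kif18a, Kif20b, Kif2a, Kif5b, Myo10, Myo18a, Myo1e, Myo5a, Myo6 and Myo9a. No called member changed direction in these fits.

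**Figure D2:**
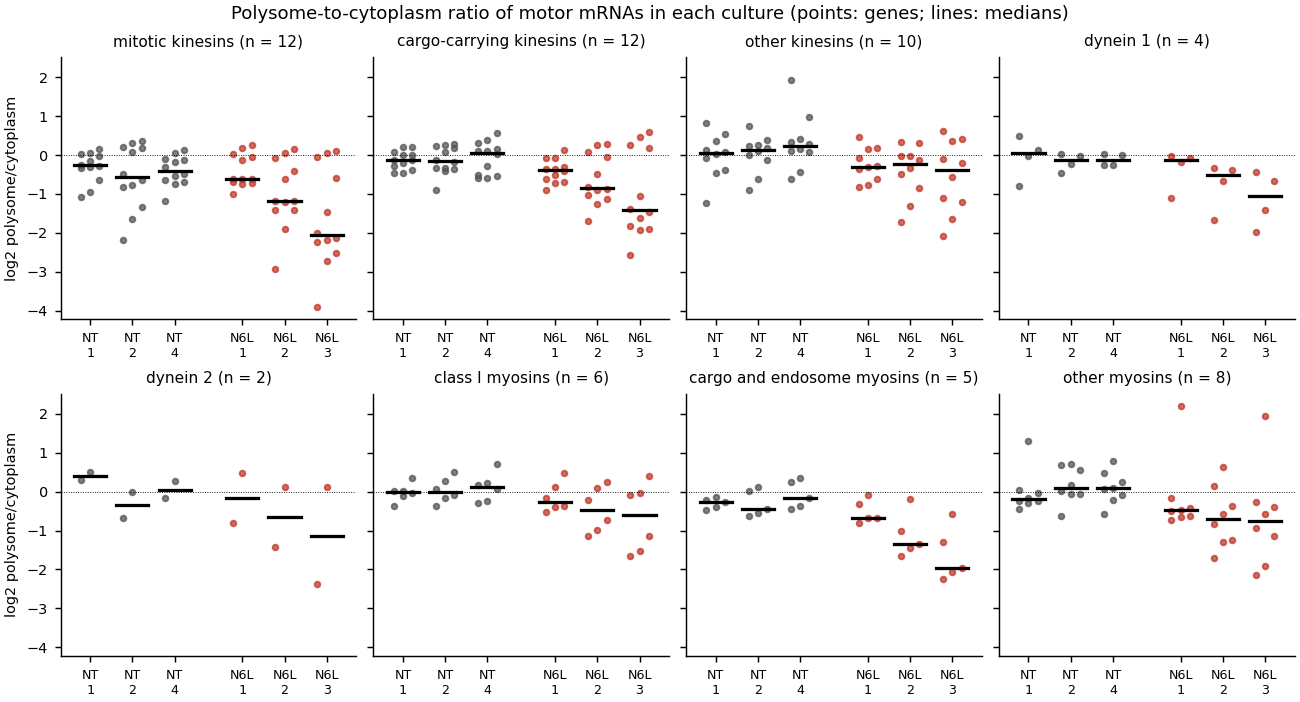
Log2 ratio of polysomal to cytoplasmic level (y axis) for every tested member in each culture (x axis, NT in grey and N6L in red), 1 panel per role. Points are genes and black lines medians. The N6L medians of the mitotic kinesins are -0.61, -1.18 and -2.06 in cultures 1, 2 and 3, against -0.26, -0.57 and -0.40 in NT cultures 1, 2 and 4.

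The change of the ratio between treatments, called the translational index (TI), asks whether the loading itself differed. edgeR called 0 of 59 members and 0.0% of all 13889 genes, and DESeq2 also called 0 members. At an unadjusted p below 0.05, 19 members were lower and 0 higher, beside 4.55% of all genes lower and 3.18% higher. In 28 members all 3 N6L ratios lay below all 3 NT ratios, beside 14.4% of all genes, and in 0 members were they all above, beside 15.3%. The members' median log2 TI was -0.65, beside 0.01 for all genes. With the length and GC correction it was -0.38, beside -0.01.

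The roles with the lowest median TI were the cargo and endosome myosins (-0.92 over 5 genes) and the other myosins (-0.84 over 8), while the mitotic kinesins stood at -0.59 over 12. In mitotic kinesins, 1 of 12 had N6L ratios below all NT ratios, and in cargo and endosome myosins 4 of 5 did. Myo6 had ratios of -0.69, -1.66 and -1.96 in N6L against -0.40, -0.45 and -0.37 in NT, a log2 TI of -0.95 ± 0.33 (FDR 0.555). Myo10 had -0.73, -1.29 and -1.91 against -0.16, -0.07 and -0.20 (-1.08 ± 0.33, FDR 0.555). Kif13b had -0.89, -1.26 and -1.93 against -0.45, 0.26 and 0.58 (-1.46 ± 0.54, FDR 0.555). In these 3 genes the treatments did not overlap, yet the difference did not pass the test over all genes.

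Motor mRNAs are longer than most. The representative transcripts of the 59 members had a median of 5304 bases, beside 2758 for all genes tested, and 50 of the 59 were longer than that. Their GC content was like that of the rest, with medians of 51.0% and 50.4%. The members lower in N6L polysomes than in N6L cytoplasm had a median of 6032 bases and 47.5% GC, and the 25 without a call 3433 bases and 54.5% GC. Across the 59 members the log2 fold change correlated with length (Spearman's rho -0.48) and with GC content (0.67), and across all genes with a length and GC value the same values were -0.62 and 0.54. Genes of one library share its depth and preparation, so these are descriptions with no test.

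The N6L libraries differed along the same axis over all genes. Genes were split at the medians of length and GC content. The median deviation of long GC-poor transcripts minus that of short GC-rich ones was 0.66 to 0.90 (log2) in the N6L cytoplasmic libraries, 0.04 and -0.19 in the polysomes of N6L cultures 1 and 2, and -1.19 in those of N6L culture 3. In NT libraries it lay between -0.71 and 0.25. Of the 25 long GC-poor members 22 (88.0%) were lower in N6L polysomes than in N6L cytoplasm, beside 51.1% of all 4039 genes of that class, and the exceptions were Dync1li2, Kif20a and Kif2c. Of the 25 long GC-rich members 10 (40.0%) were lower, beside 15.9% of 2892 genes. Of the 5 short GC-rich members, Kif12, Kif1bp, Kif22, Kifc1 and Kifc5b, 0 were lower by edgeR or DESeq2 and 0 at an unadjusted p below 0.05, beside 0.841% of 4041 genes. Kif1bp matches the symbol rule but encodes a protein that binds kinesins and is no motor.

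When each library was corrected for length and GC content, 21 members were lower and 3 higher in N6L polysomes than in N6L cytoplasm. The members' median was then -0.38, beside -0.04 for all genes. The calls lost included those of Kif14, Kif21a, Kif24, Kif2a, Kif3b, Myo5b, Myo9a, Myo9b, Dync2h1, Kif21b and Kif5c, and Kif1c (0.51, FDR 0.0282) became higher. With the correction and the culture as a block together, 28 were lower and 4 higher, with a median of -0.40 beside -0.04 for all genes. The called shares over all genes in these 2 fits are not given here. In the cytoplasm the same correction took the members' median log2 fold change from 0.44 to 0.17.

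**Figure D3:**
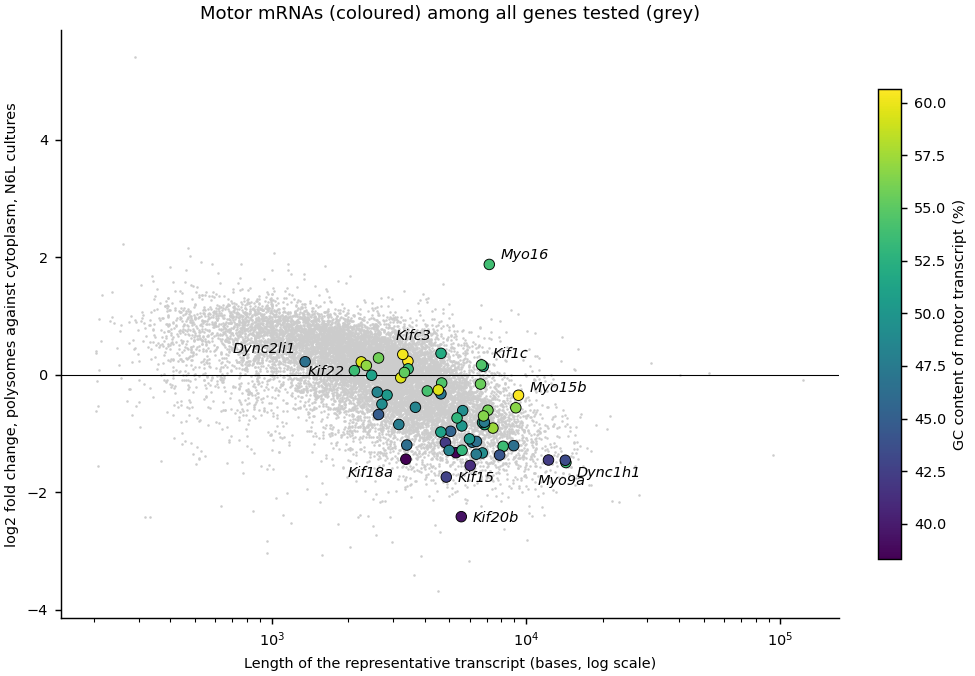
Log2 fold change of polysomes against cytoplasm in N6L cultures (y axis) by length of the representative transcript (x axis, log scale) for the genes tested (grey) and the 59 motor mRNAs (coloured by GC content). Genes without a length or with transcripts under 200 bases are not drawn. The GC-poor Kif20b and Kif15 lie lowest and the GC-rich Kifc3, Kif1c and Myo15b lie between -0.35 and 0.35, while Dync1h1, with 53.7% GC, lies at -1.49.

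Partners of the motors were read from a list of 51 genes outside the symbol rule, of which 46 were tested. The list held light chains, adaptors, dynactin, dynein regulators, non-muscle myosin II, genes listed for myosin regulation and the mitotic kinesin Cenpe. In the cytoplasm 8 were higher (17.4%) and 4 lower (8.70%), beside 14.5% and 13.8% of all genes, with a median of 0.20. In N6L polysomes against N6L cytoplasm 11 were higher (23.9%) and 15 lower (32.6%), beside 18.4% and 20.6% of all genes. The median there was -0.27. Among the 15 lower were Cenpe and the genes listed for myosin regulation Mylk, Ppp1r12a, Rock1, Rock2, Cdc42bpa and Cdc42bpb. Mlph, Melk and Unc45a from the same part of the list were not called there. In NT polysomes against NT cytoplasm edgeR called 0 and DESeq2 1, with 6 of 46 at an unadjusted p below 0.05, beside 13.4% of all genes. Of the heavy chains of non-muscle myosin II, Myh9 (7433 bases) had -1.50 ± 0.36 (FDR 0.00758) in N6L polysomes against cytoplasm. Myh14 (6390 bases) did not pass (-0.70 ± 0.38, FDR 0.152), and Myh10 was not tested. The light chain Myl6 (665 bases) had 1.17 ± 0.28 (FDR 0.00763). The dynein light chains Dynll1 (0.84 ± 0.25, FDR 0.0185) and Dynlrb1 (0.65 ± 0.20, FDR 0.0197) and the dynactin subunit Dctn3 (0.97 ± 0.23, FDR 0.00718) were higher as well, in contrast to Dync1h1. Dynll2, Dctn2, Dctn6 and Actr1b were also higher, whereas Dynlt3, Dctn1 and Dctn4 had negative values without a call (-0.39, -0.35 and -0.32). Cenpe, a long mitotic kinesin whose symbol the rule does not catch, had -2.41 ± 0.45 (FDR 0.00430), close to Kif20b. Kifap3, the third subunit of kinesin-2, was lower by -0.81 ± 0.20 (FDR 0.00929), as Kif3a and Kif3b were. Without N6L culture 2, 1 partner was called higher and 6 lower. Without N6L culture 3, 9 were lower and edgeR called 0 higher, so the calls of Myl6, Dynll1, Dynlrb1 and Dctn3 were lost. With the correction for length and GC content 3 were higher and 8 lower. In the cytoplasm the 12 calls became 5 without NT culture 1, 3 without NT culture 4 and 2 without N6L culture 2. In polysomes 2 partners were higher (4.35%) and 1 lower (2.17%) in N6L than in NT, beside 6.01% and 3.66% of all genes. There, 9 partners were called without N6L culture 1 but 1 without NT culture 1. For the TI, edgeR and DESeq2 called 0 partners, with 6 of 46 at an unadjusted p below 0.05, beside 7.73% of all genes.

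Some counts are uncertain since the sources used here give neither the strand setting nor the handling of reads with several matches. Kifc1 and Kifc5b are near-identical copies and their counts may be split between them. Kif20a shares 1271 exonic bases with Cdc23 on the opposite strand, Kif2a 1229 with Dimt1, Kif3c 2617 with an antisense gene and Kif4 832 with Pdzd11. The pseudogenes Kif22-ps and Kif4-ps had no counts in any library.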

How the data were processed

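RNA from the cytoplasm and the pooled polysomal fractions of 3 NT and 3 N6L cultures was sequenced as 4 technical replicates per library. Per the labels, the authors aligned the reads with STAR to mm10 and counted them per gene with HTSeq 0.5.3, and the deposited values are raw counts with no normalization. The annotation release, strand setting and treatment of reads with several matches were not given in the sources used here. Technical replicates differed by little more than sampling noise, with a chi-square of 0.985 to 1.07 for each degree of freedom, and were summed. The labels of 3 replicates contradict each other on the culture. These were kept in N6L culture 2, since against culture 1 the same chi-square measure was 11.2 to 11.4.

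GENCODE vM21 (GRCm38) held 50376 of the 50600 genes and supplied their symbols, coordinates and the length and GC content of 1 representative transcript each. After filterByExpr, 13889 genes remained. TMM scaling and quasi-likelihood fits (glmQLFit, glmQLFTest) used edgeR 4.0.16 under R 4.3.3, with a mean per group and no block, and p-values were Benjamini-Hochberg adjusted over all genes at a limit of 0.05. Log2 ratios per culture used a prior count of 2. The smallest library held 19519911 counts and the common biological coefficient of variation was 0.197. The members, roles, partner list and named genes (principal members of each role, the 3 highest and 3 lowest calls with a mean of at least 1 CPM, and the 3 highest levels per kilobase) were chosen with earlier results of these data known. Some results are not reported here.

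Both libraries of a culture come from 1 lysate and are paired by it. How they departed from their group means correlated between fractions at 0.364, 0.452 and 0.645 for NT and at 0.0368, 0.199 and 0.229 for N6L cultures. In simulated data with 200 changed genes of 13889, the edgeR fit recovered 73.5% for the cytoplasm, 76.5% for polysomes, 72.0% and 75.5% for polysomes against cytoplasm in NT and N6L, and 47.5% for the TI. The fits were repeated with library size alone or RLE factors as scaling, with other count filters, with DESeq2 1.42.0, with technical replicate a only, without the contradictory replicates, without each culture, within the groups compared, with blocks, and with spline offsets per library for length and GC content.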

Additional observations from a re-analysis of the deposited data

How the results depend on the processing

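No setting turned the direction of a called value. For motor genes in the cytoplasm, 20 were called, 8 to 20 with 1 culture left out and 11 with the length and GC correction. In polysomes 2 were called, 1 to 10 with 1 culture left out, 1 with library size alone or only the groups compared, 6 with no filter, 4 with DESeq2 and 12 with the length and GC correction. For NT polysomes against cytoplasm, 0 were called, 0 to 4 with 1 culture left out, 3 with no filter or only the groups compared and 2 with DESeq2. In N6L, 34 were called, 14 to 34 with 1 culture left out. For the TI, 0 were called and 4 with no filter. The remaining 60 of these counts stayed within 1.5 times. The causes were not tested. Called shares over all genes are given here for the main fit only. Library size alone moved the median of all genes in the cytoplasm from 0.04 to 0.19.

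With the culture as a replicate block, paired by lysate, 40 motor genes were called in N6L polysomes against cytoplasm (38 lower), 0 in NT and 0 for the TI, and it changed no calls beyond those of Dync1li2, Kif20a, Kif2c, Kifc3, Myo15b and Myo7a. Across treatments the cultures share only a number. Their deviations correlated by 0.228 and 0.0455 in cytoplasm and by 0.296 and 0.00756 in polysomes for numbers 1 and 2, and a replicate block on these numbers gave 24 calls in cytoplasm and 2 in polysomes. With 3 cultures a group, simulated TI changes were recovered in 21.3% of genes at a log2 change of 1 and 78.3% at 2.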
